A study of Mus musculus with 37 samples.

Results

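Left ventricular RNA of mice sampled 3 days after cardiac arrest and resuscitation (Arrest 3 d, 4 libraries) was compared with that of mice that received anesthesia alone (Naïve, 5 libraries). These 9 libraries are 9 of the 37 in the series, which also holds Adr mice, given adrenaline without arrest, and both procedures at 0.5, 1 and 7 days. Of the 56748 genes in the table, 13248 reached at least 0.5 FPKM in at least 4 of the 9 libraries (FPKM is a fragment count scaled by gene length and library size), and all of them were tested on the scale log2(FPKM + 1). All mice were C57BL/6J of both sexes, 8 to 10 weeks old, and all were given isoflurane. Arrest mice were ventilated and received potassium chloride into the left ventricle; after 8 min of asystole, 500 µL of adrenaline at 15 µg/mL and chest compressions were given. Naïve mice were neither intubated nor injected, and their label reads no intervention. Adr mice, labelled sham, were ventilated and received saline and then the same adrenaline. The 3-day Arrest libraries come from mice that lived to that day, and 1 mouse of that group died before it. Hearts were flushed with cold saline before ventricular tissue was taken. The comparison asks what remains different in the ventricle 3 days after resuscitation.

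The ventricle is made mostly, by mass, of cardiomyocytes, which run on fatty acids burned in mitochondria and contract through the sarcomere, while fibroblasts, endothelial cells, mural cells and resident macrophages lie between them. After ischemia and reperfusion, monocytes enter the tissue and become macrophages that take up debris through lysosomes, and activated fibroblasts deposit matrix proteins such as periostin. Ribosomal proteins, the structural subunits of the ribosome, are encoded by short, highly expressed genes that have many near-identical processed copies elsewhere in the genome. In bulk tissue, fewer cells of a type and less RNA per cell cannot be told apart.

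Cardiomyocyte genes were abundant in every library: Myh6, the adult ventricular myosin heavy chain, ranged from 931 to 1787 FPKM in Arrest and from 1440 to 1865 FPKM in Naïve. The atrial gene Sln was listed at 0 in 8 of the 9 libraries, and none of the natural killer cell list or the lung list passed the filter, although the airway gene Scgb1a1 stood at 42.8 FPKM in Arrest replicate 2. Fragments counted on genes numbered 14.8 to 30.2 M in Arrest, where replicate 4 was by far the deepest library, and 13.4 to 15.7 M in Naïve. Arrest replicate 1 and Naïve replicate 4 stood apart from the rest, with mean Spearman correlations to the other 8 libraries of 0.883 and 0.873 against 0.908 to 0.921 for the other 7. Each group holds libraries of both sexes as read from Xist and Ddx3y (2 of 4 and 3 of 5 female). The numbers in the sample descriptions, whose meaning is not given, run from 90 to 112 in Arrest and from 116 to 127 in Naïve. They do not overlap, so whatever those numbers mark cannot be told apart from the groups. The labels name each library a separate sample, and the p-values measure the spread between these samples.

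At 3 days 1 gene passed the test between the ventricles of Arrest and Naïve mice, and all other differences stayed uncalled. With limma and Benjamini-Hochberg adjustment over 13248 genes, only Gm2830 was called (0.00755% of the genes tested). At an unadjusted p of at most 0.05, 815 genes were higher in Arrest (6.15%) and 538 lower (4.06%), 1353 in all, where 662.4 would be expected by chance alone. Under quantile normalization that split became 620 higher and 750 lower. Genes are not independent of one another, and whether 1353 exceeds 662.4 beyond chance was not tested. In 258 genes (1.95%) every Arrest library lay above every Naïve library, and in 284 (2.14%) every Arrest library lay below. A single model of 36 libraries, which estimates the spread from all groups of the series (Adr 3 d replicate 3 left out), called 112 genes higher (0.681% of 16458 tested) and 76 lower (0.462%). Of its 188 calls, 178 were among the genes tested here, all with an unadjusted p of at most 0.05 in the 9 libraries. Both models compare the same group means, so their differences are equal and the shared sign adds no support. The count of calls thus differed between the models, and below a gene is said to rise or fall only where it passed in the 9 libraries.

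**Figure D1:**
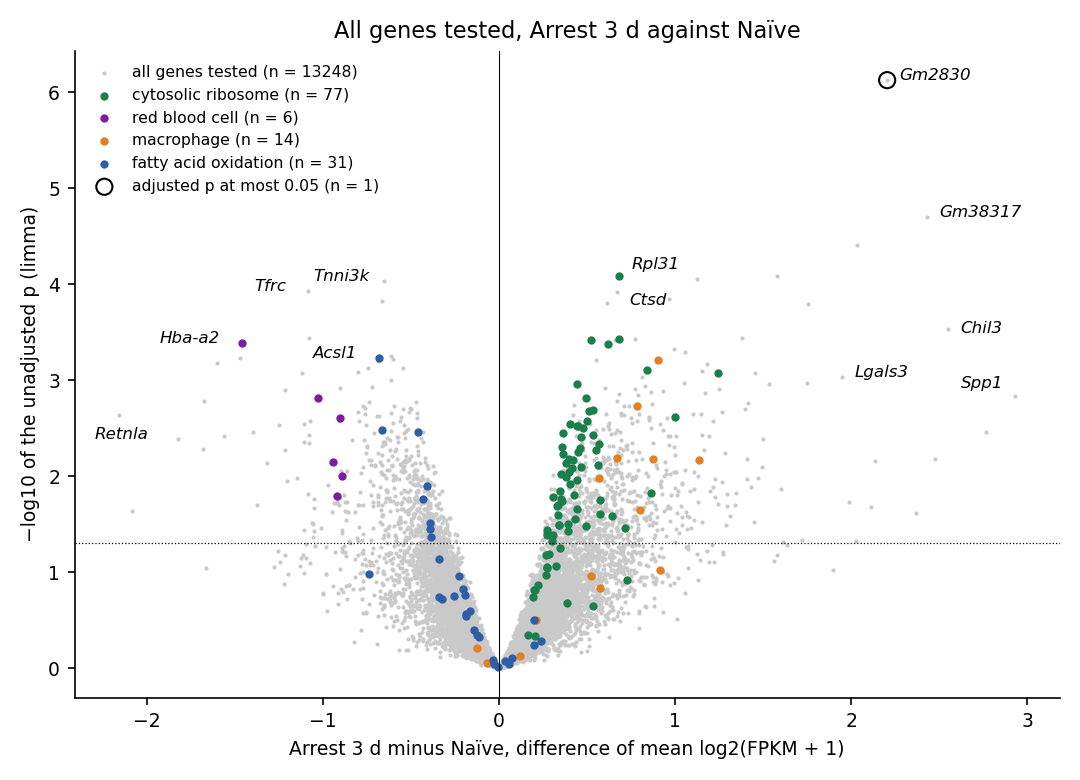
Each point is 1 of 13248 genes, with the difference between Arrest 3 d and Naïve in mean log2(FPKM + 1) on the horizontal axis and −log10 of the unadjusted limma p on the vertical axis (dotted line, the 0.05 level). Colours mark 4 gene lists and the circle the 1 called gene, Gm2830; ribosomal protein genes lie almost all to the right of 0, and the 6 red blood cell genes all to the left.

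Gm2830, the called gene, is a processed pseudogene, an intronless copy of a messenger RNA (ENSMUSG00000086567, chromosome 13, 54647518 to 54647902 on the minus strand in the deposited coordinates, whose build is not given in the sources used here). In Arrest replicates 1 to 4 it stood at 9.62, 9.40, 8.18 and 8.63 FPKM. In Naïve replicates 1 to 5 it stood at 1.33, 0.818, 2.57, 0.955 and 0.579 FPKM. The lowest Arrest library thus lay more than 3 times above the highest Naïve library. The difference was 2.20 ± 0.22 on the log2 scale (SE; n = 4 and 5; limma, adjusted p = 0.00993), and it was 1.98 after each library's trend with gene length was removed. These values rest on 49 to 108 fragments per Arrest library and on 3 to 13 per Naïve library. Gm2830 was called in 19 of the 28 alternative analyses (adjusted p from 0.000815 to 0.411), and in none that left out an Arrest library.

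The sequence of Gm2830 is close to that of Rps24, a protein of the small ribosomal subunit. Over its 385 bases the GENCODE M21 transcript (GRCm38) aligned to Rps24 with 96.1% identity, 11 mismatches and 4 gap positions. The 150 bases of the 2 transcripts that hold the most differences are shown because reads can be told apart only where they cover such positions. Both are written 5′ to 3′, bases 146 to 295 of Gm2830 and bases 161 to 310 of the Rps24 coding sequence, and capitals mark the 7 differences:
Gm2830: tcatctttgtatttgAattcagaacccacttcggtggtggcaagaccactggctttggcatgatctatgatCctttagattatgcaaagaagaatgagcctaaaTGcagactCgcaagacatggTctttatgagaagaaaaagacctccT
Rps24: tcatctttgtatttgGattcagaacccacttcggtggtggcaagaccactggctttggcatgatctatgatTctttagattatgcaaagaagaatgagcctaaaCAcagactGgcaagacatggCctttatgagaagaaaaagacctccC
Rps24 itself stood at 120, 121, 138 and 158 FPKM in Arrest and at 81.6, 101, 105, 138 and 90.7 FPKM in Naïve, with overlapping groups, a difference of 0.39 ± 0.16 and an adjusted p of 0.441. Its level was far above that of Gm2830 even in Arrest (means of 134 ± 18 and 8.96 ± 0.670 FPKM, SD, n = 4). How reads that match both were divided is not given in the sources used here, so the Gm2830 values are uncertain, and a part of Rps24 reads in them was not tested.

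A pseudogene also led the genes that missed the threshold. Gm38317 (ENSMUSG00000103735, chromosome 3, 13040419 to 13040761, plus strand) was listed at 0 in all 5 Naïve libraries. It stood at 7.07, 3.13, 9 and 1.52 FPKM in Arrest, from 36, 16, 48 and 17 fragments, and its adjusted p was 0.133. It passed the filter on low values only through the Arrest libraries, where it was high, so its p does not stand apart from that choice. A count of 0 allows up to 3 fragments, which is 0.551 to 0.666 FPKM in the Naïve libraries, so even the lowest Arrest library lay above that limit. The transcript of 343 bases aligned to Itgb5, an integrin subunit of vascular and stromal cells, with 1 mismatch. The 150-base stretch with that mismatch (bases 165 to 314 of Gm38317, bases 1918 to 2067 of the Itgb5 coding sequence) is shown for the same reason:
Gm38317: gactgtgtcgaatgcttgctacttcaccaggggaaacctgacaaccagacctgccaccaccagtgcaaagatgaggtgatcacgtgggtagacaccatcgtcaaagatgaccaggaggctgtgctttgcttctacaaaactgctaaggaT
Itgb5: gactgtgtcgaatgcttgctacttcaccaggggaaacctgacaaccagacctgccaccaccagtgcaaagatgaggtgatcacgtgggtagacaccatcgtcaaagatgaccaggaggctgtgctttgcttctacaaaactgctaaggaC
Itgb5 ranged from 35.0 to 41.0 FPKM in Arrest and from 25.8 to 37.4 FPKM in Naïve (difference 0.25 ± 0.13, adjusted p = 0.531). The same uncertainty therefore holds for Gm38317 as for Gm2830. Gm28875, a long noncoding RNA gene on chromosome 12 (104891760 to 104892948, minus strand), stood at 6.34, 5.58, 6.49 and 3.10 FPKM in Arrest and at no more than 1.75 FPKM in Naïve (1.75 ± 0.32, adjusted p = 0.165). Too few Naïve libraries reached 0.5 FPKM for Gm28875 to pass the filter without the Arrest libraries.

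Among the protein-coding genes with the smallest p and no overlap between the groups, none was called. Ctsd encodes cathepsin D, the main aspartic protease of lysosomes. It stood at 311, 339, 297 and 298 FPKM in Arrest against 170, 205, 225, 202 and 178 FPKM in Naïve, so that the groups were separated by more than their own ranges (0.67 ± 0.12, adjusted p = 0.165). Card9, a signalling adaptor of myeloid cells, was at 1.43 to 2.02 FPKM in Arrest and at 0 to 0.494 FPKM in Naïve, and it too passed the filter only through the Arrest libraries. Ebp, an enzyme of cholesterol synthesis, was at 7.13 to 9.04 FPKM against 2.48 to 4.28 FPKM. Anp32b, a histone chaperone, was at 45.5 to 55.3 FPKM against 29.3 to 34.2 FPKM, and Tubb3, a beta-tubulin, at 2.19 to 4.85 FPKM against 0 to 1.10 FPKM. Of these genes, all 5 were called in the 36-library model (adjusted p from 0.00110 for Ctsd to 0.00297 for Anp32b), against 0.681% of all genes called higher there. All 5 missed the threshold in the 9 libraries (adjusted p = 0.165 in each). They were picked for their small p in the same Arrest and Naïve libraries, so the calls in the larger model add no support.

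Genes on the lower side also had small, tight differences. Tnni3k, a kinase found in cardiomyocytes that binds cardiac troponin I, stood at 19.9, 21.9, 21.7 and 18.9 FPKM in Arrest and at 35.5, 32.5, 32.6, 29.6 and 34.4 FPKM in Naïve (−0.65 ± 0.11, adjusted p = 0.165). Fam210a, which encodes a mitochondrial protein, stood at 7.97, 8.70, 8.61 and 7.08 FPKM against 12.7 to 14.5 FPKM (−0.67 ± 0.12, adjusted p = 0.165). Tfrc, the transferrin receptor that brings iron into cells, stood at 5.92, 6.25, 9.06 and 7.10 FPKM against 16.5, 11, 18, 21 and 15 FPKM (−1.08 ± 0.19, adjusted p = 0.165). In each of the 3 the highest Arrest library lay below the lowest Naïve library. Of these 3, picked in the same way, Tnni3k and Fam210a were called in the 36-library model (adjusted p = 0.00611 and 0.00208), whereas Tfrc was not (adjusted p = 0.278). In that model 0.462% of all genes were called lower. Among the next by p were Svil, an actin-binding protein of muscle (−0.60 ± 0.13), Zbtb20, a transcriptional repressor (−0.69 ± 0.15), and Nlk, a kinase of Wnt signalling (−0.80 ± 0.18), with adjusted p from 0.270 to 0.271. Leaving out each library in turn kept Nlk between −0.86 and −0.67 and Zbtb20 between −0.78 and −0.63.

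**Figure D2:**
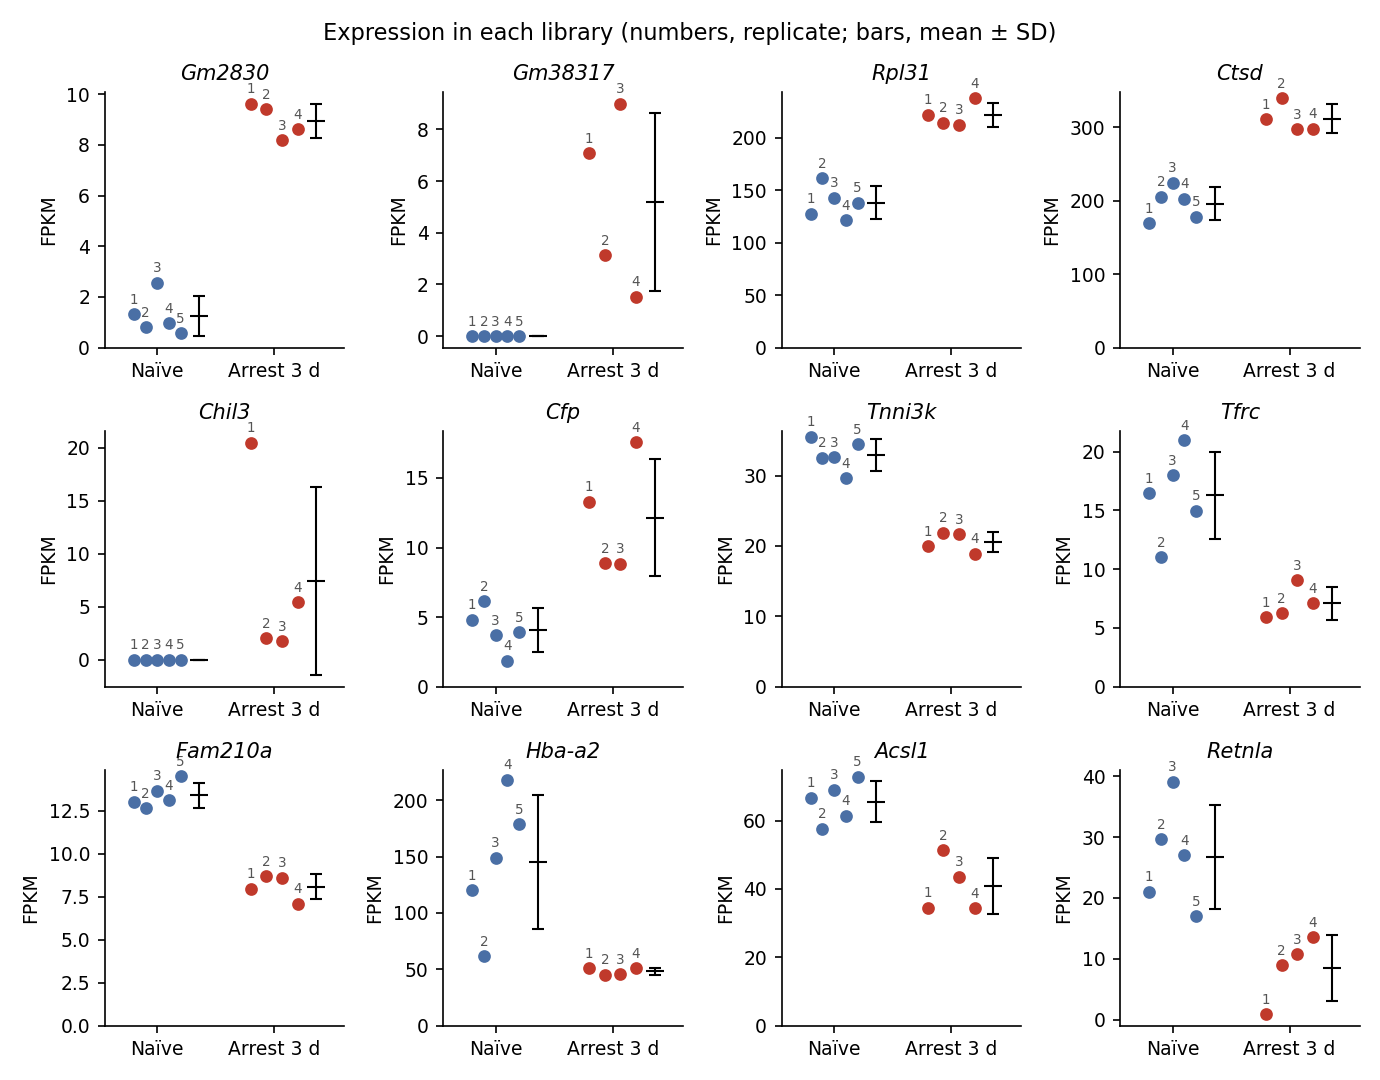
FPKM of 12 genes in each Naïve (blue) and Arrest 3 d (red) library, with the replicate number above each point and the mean ± SD beside each group. The groups do not overlap in any of the 12 genes; Arrest replicate 1 is the highest library for Chil3 and the lowest for Retnla.

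Genes of the cytosolic ribosome were above Naïve almost without exception. Of 77 tested members, 76 were above Naïve and 60 had an unadjusted p of at most 0.05, against 6.15% of all genes, while 0 were called. The median difference was 0.40 on the log2 scale, against 0.01 over all genes. In 39 of the 77 every Arrest library lay above every Naïve library, against 1.95% of all genes. Summed over the list, expression ran from 19670 to 23510 FPKM in Arrest and from 13930 to 17700 FPKM in Naïve. The 36-library model called 22 members, all of them higher, against 0.681% of all genes in that model. Its calls over all genes went from 188 to 86 once the trend with length was removed.

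Rpl31, a large-subunit protein, had the smallest p of the list: 222, 214, 212 and 238 FPKM in Arrest and 128, 161, 143, 121 and 138 FPKM in Naïve (0.68 ± 0.11, adjusted p = 0.165). Rpl19 stood at 412 to 457 FPKM against 272 to 330 FPKM, and Rps20, of the small subunit, at 82.0 to 106 FPKM against 50.5 to 68.4 FPKM. Rps27a, which encodes a ubiquitin fused to a ribosomal protein, had the widest difference of the list (1.24 ± 0.28). Its values of 124, 63.9, 117 and 196 FPKM in Arrest overlapped those of Naïve (40.0 to 70.2 FPKM) through replicate 2. Only Rpl35a lay below Naïve, by −0.04.

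Ribosomal protein genes are short, and in these libraries short genes tended to be higher in Arrest. Among the 11401 genes with a mean of at least 1 FPKM, the difference correlated with gene length at a Spearman rho of −0.27 across genes, which are not independent replicates. The mean difference was 0.14 in the 2851 shortest of these genes and −0.08 in the 2850 longest. After removal of each library's trend with length the list median was 0.31, and under quantile normalization it was 0.26. In single libraries, the list mean relative to Naïve was 0.47, 0.34, 0.31 and 0.62 in Arrest replicates 1 to 4 and between −0.17 and 0.20 in the Naïve libraries. Arrest replicate 1 had next to no trend with length (rho −0.0030 of its ratio to the mean of all 9 libraries), whereas replicates 2 to 4 had rho from −0.22 to −0.18. The Naïve libraries had rho from 0.0039 to 0.19, so replicate 1 also lay below all 5 on this measure. The part of the length trend in the list's difference was not tested beyond the regression. Without Arrest replicate 1 and Naïve replicate 4 the median was 0.41, with 55 members at an unadjusted p of at most 0.05.

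Macrophage genes were mostly above Naïve. Of 14 tested, 12 were above, 7 with an unadjusted p of at most 0.05, against 6.15% of all genes, and 0 were called. The list median was 0.62, and 0.66 without Arrest replicate 1 and Naïve replicate 4. C1qc, a chain of the complement initiator C1q made by tissue macrophages, stood at 79.2, 50.6, 55.1 and 83.1 FPKM in Arrest and at 31.1, 33.9, 33.4, 48.6 and 28.8 FPKM in Naïve (0.90 ± 0.19, adjusted p = 0.270). The groups did not overlap, but Arrest replicate 2 lay only just above Naïve replicate 4. Cd68, a lysosomal glycoprotein of phagocytes, stood at 20.8, 19.9, 9.21 and 42.0 FPKM against 5.26 to 10.5 FPKM (1.13 ± 0.34, adjusted p = 0.356). Lyz2, lysozyme of myeloid cells, stood at 638, 476, 369 and 935 FPKM against 242 to 441 FPKM. Markers did not shift evenly. Csf1r, the receptor on which macrophages depend (0.21 ± 0.20), and Adgre1, which encodes F4/80 (0.52 ± 0.30), differed less. Timd4 (−0.12 ± 0.24) and Folr2 (−0.07), markers of long-resident macrophages, lay slightly below Naïve, the only 2 members to do so. Mrc1 (0.57), Cd163 (0.80) and Lyve1 (0.91) lay above Naïve, and Lyve1 was high in Arrest replicate 1 alone.

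Single myeloid genes, chosen after their values were seen, differed more. Lgals3, a galectin abundant in activated macrophages, stood at 16.3, 5.41, 5.36 and 29.5 FPKM in Arrest and at 1.24 to 3.73 FPKM in Naïve (1.95 ± 0.44, adjusted p = 0.287). Ctss, cathepsin S, stood at 41.5, 35.8, 29.8 and 98.8 FPKM against 15.7 to 23.6 FPKM, and Spi1, the myeloid transcription factor PU.1, at 6.07 to 11.4 FPKM against 1.94 to 5.38 FPKM. Arrest replicate 4, the deepest library, was the highest for all 3. Chil3, a chitinase-like protein of monocytes and alternatively activated macrophages, was listed at 0 in all Naïve libraries and at 20.5, 2.05, 1.77 and 5.43 FPKM in Arrest (adjusted p = 0.251). It passed the filter only through the Arrest libraries, so its p adds no support to the inflammatory monocyte list, of which none of the other 4 tested members had an unadjusted p of at most 0.05. The list mean was 1.36 and 1.93 above Naïve in Arrest replicates 1 and 4 but 0.36 and 0.42 in replicates 2 and 3. Without Arrest replicate 1 and Naïve replicate 4, Chil3 did not pass the filter on low values. Neutrophil markers were low or overlapped between the groups. Ly6g was listed at 0 throughout, and S100a8 was at 16.7 FPKM in Arrest replicate 1 and at no more than 2.79 FPKM elsewhere. S100a9 ranged from 0 to 9.16 FPKM in Arrest and from 0 to 8.20 FPKM in Naïve.

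Complement genes overlap the macrophage list through the 3 C1q chains. Of 19 tested, 12 were above Naïve (median 0.25), 6 with an unadjusted p of at most 0.05, against 6.15% of all genes. Cfp, which encodes properdin, the stabilizer of the alternative pathway convertase, stood at 13.3, 8.88, 8.85 and 17.6 FPKM in Arrest and at 4.82, 6.13, 3.68, 1.86 and 3.90 FPKM in Naïve (1.38 ± 0.27, adjusted p = 0.251). C5ar1, the receptor for C5a, was at 3.78 to 7.85 FPKM against 0.492 to 3.67 FPKM, also without overlap. C3 (−0.11) and C2 (−0.09) lay near Naïve. The 36-library model called Cfp, C1qc and C1qb higher, against 0.681% of all genes in that model.

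Red blood cell genes were lower in Arrest. All 6 tested members lay below Naïve with an unadjusted p of at most 0.05, against 4.06% of all genes, and 0 were called; the list median was −0.93, and it stayed between −1.12 and −0.77 when each library was left out. Hba-a2, an alpha-globin, stood at 51.1, 45.1, 45.7 and 50.9 FPKM in Arrest and at 120, 61.5, 149, 218 and 179 FPKM in Naïve (−1.46 ± 0.29, adjusted p = 0.251). The Arrest libraries lay close together and all below Naïve. Hba-a1 stood at 304 to 574 FPKM against 532 to 1209 FPKM, with overlap. Alas2, the erythroid enzyme that starts heme synthesis, was at 12.2, 3.77, 3.21 and 10.1 FPKM against 10.1 to 15.7 FPKM. Haemoglobin genes took 0.0627% to 0.148% of the counted fragments in Arrest and 0.125% to 0.308% in Naïve. Naïve replicate 4, which stood apart from the other libraries, had the highest share. Globin genes share near-identical copies, and how reads were divided between them is not given in the sources used here.

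Matrix genes were uneven among the Arrest mice. The mean of 19 matricellular and myofibroblast genes was 1.74 above Naïve in Arrest replicate 4 and 0.72 in replicate 1, but −0.01 and 0.10 in replicates 2 and 3. Naïve libraries lay between −0.18 and 0.17. Spp1, osteopontin, stood at 12.3, 3.5, 3.12 and 66.2 FPKM in Arrest and at no more than 1.59 FPKM in Naïve, without overlap (2.93 ± 0.70, adjusted p = 0.306). Fewer than 4 Naïve libraries reached 0.5 FPKM. Spp1 thus passed the filter through the Arrest libraries, where it was high, and its p does not stand apart from that choice. Postn, periostin, was at 51.6 and 90.6 FPKM in replicates 1 and 4 but at 5.11 and 4.10 FPKM in replicates 2 and 3, inside the Naïve range of 3.17 to 8.59 FPKM. Timp1, the metalloprotease inhibitor, had the same split, at 57.2, 6.34, 4.13 and 61.7 FPKM against 0.993 to 7.70 FPKM (2.47 ± 0.75, adjusted p = 0.356).

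Col1a1, a fibrillar collagen gene, was far above Naïve in 1 of the 4 Arrest hearts and less so in replicates 1 and 3. Col1a1 stood at 27.2, 14.9, 23.3 and 101 FPKM in Arrest against 15.4 to 20.8 FPKM in Naïve, and Cthrc1, a gene of activated fibroblasts, at 0, 1.09, 2.46 and 34.1 FPKM against 0 to 1.05 FPKM. The median of the 16 tested collagens was 0.12, and −0.02 without Arrest replicate 4. Lox, which cross-links collagen, stood at 42.6 and 30.3 FPKM in replicates 1 and 4 and at 2.93 and 2.09 FPKM in replicates 2 and 3, against 0.883 to 3.19 FPKM in Naïve. Proliferation genes had a similar pattern, with the mean of 12 cell cycle genes 0.98 above Naïve in replicate 4 and between −0.11 and 0.17 in the other 3 Arrest libraries. Replicate 4 was also the deepest library (30.2 M fragments) and had the highest macrophage mean (1.03). The part of depth in these values was not tested.

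**Figure D3:**
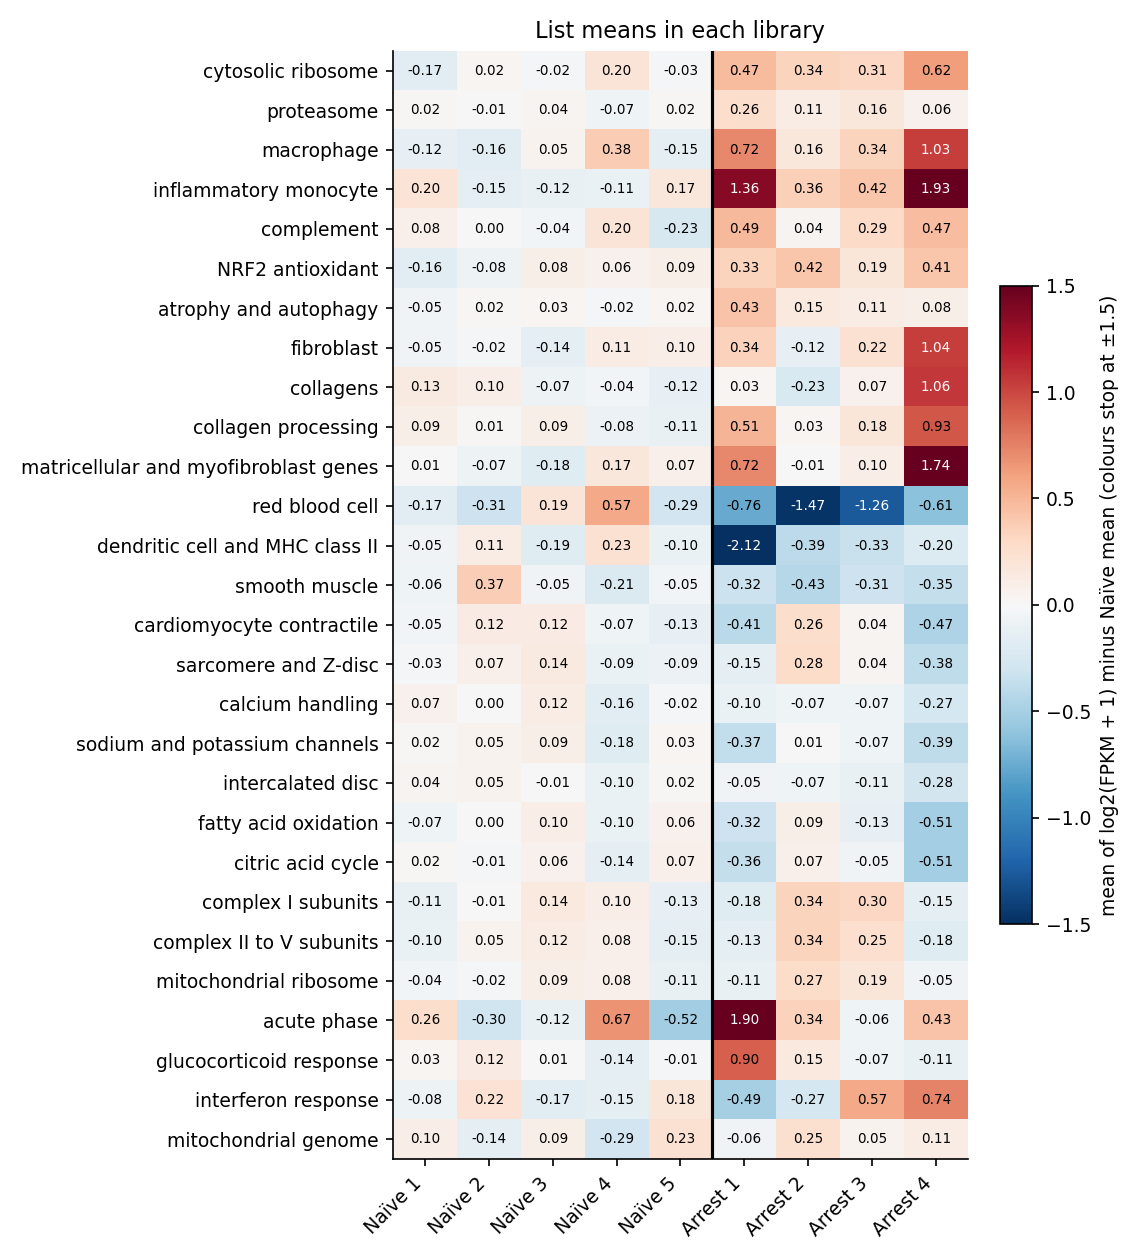
Mean log2(FPKM + 1) of 28 gene lists in each library, minus the mean of the Naïve libraries (numbers in the cells; colours stop at ±1.5). The ribosome row is above 0.3 in all 4 Arrest libraries and the red blood cell row below −0.6, whereas matricellular genes are highest in Arrest replicate 4 and MHC class II genes lowest in Arrest replicate 1.

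Arrest replicate 1 stood apart in several gene groups. Antigen presentation genes of MHC class II were low there: Cd74, the invariant chain, stood at 12.5 FPKM in replicate 1 and at 107, 113 and 122 FPKM in replicates 2 to 4, against 128 to 176 FPKM in Naïve. Every Arrest library lay below every Naïve library for Cd74, yet the difference of −1.11 ± 0.55 (adjusted p = 0.520) became −0.34 without that replicate. H2-Ab1 and H2-Eb1 were at 2.28 and 2.56 FPKM in replicate 1 and at 21.9 to 31.1 FPKM and 35.8 to 43.0 FPKM in the other 3. Acute phase and hormone-responsive genes were high in the same library. Serpina3n, a secreted serpin of the acute phase, stood at 114, 13.1, 4.89 and 25.2 FPKM in Arrest and at 3.03, 1.49, 4.39, 18.9 and 2.45 FPKM in Naïve (2.11 ± 0.79, adjusted p = 0.413). Lcn2, lipocalin 2, stood at 51.4 FPKM in replicate 1 and at no more than 4.34 FPKM in every other library. Mt1, a metallothionein, stood at 869 FPKM there and at 132 to 184 FPKM in the other Arrest libraries, against 95.9 to 132 FPKM in Naïve. The glucocorticoid targets Fkbp5 and Zbtb16 were at 25.8 and 19.7 FPKM in replicate 1 and at no more than 2.39 and 4.29 FPKM elsewhere.

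Retnla, a secreted product of resident and alternatively activated macrophages, was low in all Arrest libraries. It stood at 0.899, 8.95, 10.7 and 13.6 FPKM against 21, 29.6, 39.1, 27 and 17 FPKM in Naïve (−1.83 ± 0.51, adjusted p = 0.323), and the difference was −1.16 without Arrest replicate 1. Its direction was thus opposite to that of C1qc and Cd68. Ccl8, a chemokine of the same cells, was listed at 0 in Arrest replicate 1 and stood at 10.4, 17.9 and 49.9 FPKM in the other 3, against 0 to 3.38 FPKM in Naïve. Interferon response genes had no common direction among the Arrest hearts, with list means of −0.49, −0.27, 0.57 and 0.74. Irf7, the interferon regulatory factor, stood at 6.03, 4.54, 9.52 and 16.2 FPKM against 2.55 to 4.53 FPKM (1.00 ± 0.30, adjusted p = 0.355).

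Calcium handling and channel genes of the cardiomyocyte lay mostly below Naïve, by small amounts. Of 24 tested calcium handling genes, 18 were below Naïve (median −0.14). An unadjusted p of at most 0.05 held for 5 of these, against 4.06% of all genes. Ryr2, the release channel of the sarcoplasmic reticulum, stood at 31.8, 33.4, 31.0 and 23.6 FPKM in Arrest and at 39.3 to 43.8 FPKM in Naïve, without overlap (−0.50 ± 0.12, adjusted p = 0.306). It is encoded by a very long gene, and after removal of the trend with length its difference was −0.28. Fkbp1b, calstabin 2, which binds that channel, lay on the other side, at 3.69, 1.31, 1.2 and 1.23 FPKM against 0 to 0.626 FPKM (1.17 ± 0.28). Its Naïve values were low beside the filter's 0.5 FPKM, and the part of the filter in its selection was not tested. Atp2a2, the calcium pump, overlapped (−0.30 ± 0.16). Of 27 channel and pump genes, 21 were below Naïve, 6 with an unadjusted p of at most 0.05, against 4.06% of all genes.

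At the intercalated disc, where cardiomyocytes join, 16 of 20 genes were below Naïve. Ctnna3, the heart's alpha-T-catenin, stood at 1.17, 2.27, 1.65 and 1.29 FPKM in Arrest and at 3.20, 3.13, 2.79, 3.57 and 3.54 FPKM in Naïve (−0.72 ± 0.17, adjusted p = 0.303). Vcl, vinculin, stood at 3.68 to 4.67 FPKM against 5.61 to 9.64 FPKM (−0.58 ± 0.17). Neither group of values overlapped, and both genes were called in the 36-library model (adjusted p = 0.00355 and 0.0294). These 2 were the only members called there, against 0.462% of all genes called lower in that model. Every Arrest library lay below every Naïve library in 3 of the 20 and above in 1, against 2.14% and 1.95% of all genes. The 0.05 level without adjustment was reached by 4 lower members and 1 higher member, against 4.06% and 6.15% of all genes. Des, which encodes the intermediate filament desmin, was higher, at 399 to 662 FPKM against 282 to 399 FPKM, the ranges just failing to overlap (0.54 ± 0.18). Over the 30 sarcomere and Z-disc genes the median was −0.01, with 13 above and 17 below Naïve. Ttn, titin, at −0.76 ± 0.19, was −0.33 after removal of the trend with length. Nppb, the wall-stress peptide BNP, did not separate (−0.02 ± 0.33), while Nppa stood at 95.7 and 130 FPKM in Arrest replicates 1 and 4 and at 10.7 and 30.8 FPKM in replicates 2 and 3, against 10.2 to 29.1 FPKM.

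Genes of fatty acid use and the citric acid cycle lay mostly below Naïve, whereas those of glycolysis did not. Of 31 tested genes of fatty acid uptake and oxidation, 25 were below Naïve and 0 were called (median −0.19). An unadjusted p of at most 0.05 held for 8 of the 25, against 4.06% of all genes. Acsl1, which activates long-chain fatty acids, stood at 34.5, 51.4, 43.6 and 34.4 FPKM in Arrest and at 66.7, 57.6, 69.0, 61.4 and 72.8 FPKM in Naïve, without overlap (−0.68 ± 0.14, adjusted p = 0.270). Ppara, the nuclear receptor that drives such genes, stood at 5.79, 4.75, 4.64 and 2.70 FPKM against 6.39 to 9 FPKM (−0.66 ± 0.19, adjusted p = 0.329). Of 24 citric acid cycle genes, 23 were below Naïve, again by little (median −0.19). Such a p held for 3 of the 23, against 4.06% of all genes. Of 32 genes of glycolysis and glycogen, 16 were above and 16 below (median 0.02). At an unadjusted p of at most 0.05, 4 differed, all higher, against 6.15% of all genes. The means of the fatty acid and citric acid cycle lists were uneven among the Arrest hearts. Fatty acid genes were at −0.32, 0.09, −0.13 and −0.51 in replicates 1 to 4, and citric acid cycle genes at −0.36, 0.07, −0.05 and −0.51, so replicate 2 lay slightly above Naïve in both. Pcca, of propionyl-CoA metabolism, was at 7.64 to 13.4 FPKM against 14.7 to 17.5 FPKM (−0.60 ± 0.16).

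Respiratory chain genes had no stable direction. The median of 37 complex I subunits was 0.07 and that of 43 subunits of complexes II to V was 0.10. Both turned to −0.06 and −0.03 once the trend with length was removed, so that no direction can be given. The share of fragments on mitochondrially encoded genes was 26.2%, 28.6%, 24.6% and 24.5% in Arrest and 28.0%, 25.2%, 27.3%, 25.3% and 30.9% in Naïve. The means were 25.9% ± 1.91 and 27.4% ± 2.35 (SD, n = 4 and 5), and they did not differ beyond the spread (exact two-sided permutation test, p = 0.381, where the smallest possible p is 0.0159).

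Among stress and turnover lists, antioxidant, autophagy, proteasome and ATF4 genes lay mostly above Naïve, and heat shock and ER stress genes had no common direction. Of 33 NRF2 antioxidant genes 28 were above (median 0.31, and 0.23 after removal of the trend with length). An unadjusted p of at most 0.05 held for 12 of the 28, against 6.15% of all genes. Among those 12 were Ftl1, the ferritin light chain, at 227, 338, 215 and 559 FPKM against 146 to 210 FPKM, Srxn1, sulfiredoxin, at 7.69, 14.3, 12.7 and 15.4 FPKM against 3.57 to 8.88 FPKM, and Gpx1, glutathione peroxidase, at 6.5, 9.44, 12.7 and 20.7 FPKM against 0.798 to 8.22 FPKM. Nfe2l2, which encodes NRF2 itself, lay below Naïve (−0.38). Of 25 atrophy and autophagy genes 21 were above, 6 with an unadjusted p of at most 0.05, against 6.15% of all genes. These 6 comprised Ctsd, Ctsb, Gabarap, Gabarapl1, Map1lc3a and Sqstm1, which serve lysosomes and autophagosomes. Lower at such a p was 1 member, Fbxo30 (−0.35), against 4.06% of all genes. Every Arrest library lay above every Naïve library in 4 members and below in 2, against 1.95% and 2.14% of all genes. Gabarap, which helps autophagosomes form and fuse, stood at 141, 163, 159 and 170 FPKM against 95.6 to 121 FPKM (0.55 ± 0.12, adjusted p = 0.270). The muscle atrophy ligases Fbxo32 (0.08) and Trim63 (0.14) had no such difference. Of 38 proteasome genes 33 were above Naïve, by a median of 0.20 that was 0.09 after removal of the trend with length; this median and that of the autophagy list fell below 0 (−0.02 and −0.20) with the description number as a covariate. Of 24 genes of the ATF4 stress response 20 were above Naïve (median 0.29). At an unadjusted p of at most 0.05, 4 were higher and 1 lower, against 6.15% and 4.06% of all genes. Heat shock and chaperone genes were split 12 and 12 (median −0.04), and of 23 ER stress genes 9 were above and 14 below (median −0.03). Iron handling genes, which include Tfrc, had a median of −0.02.

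**Figure D4:**
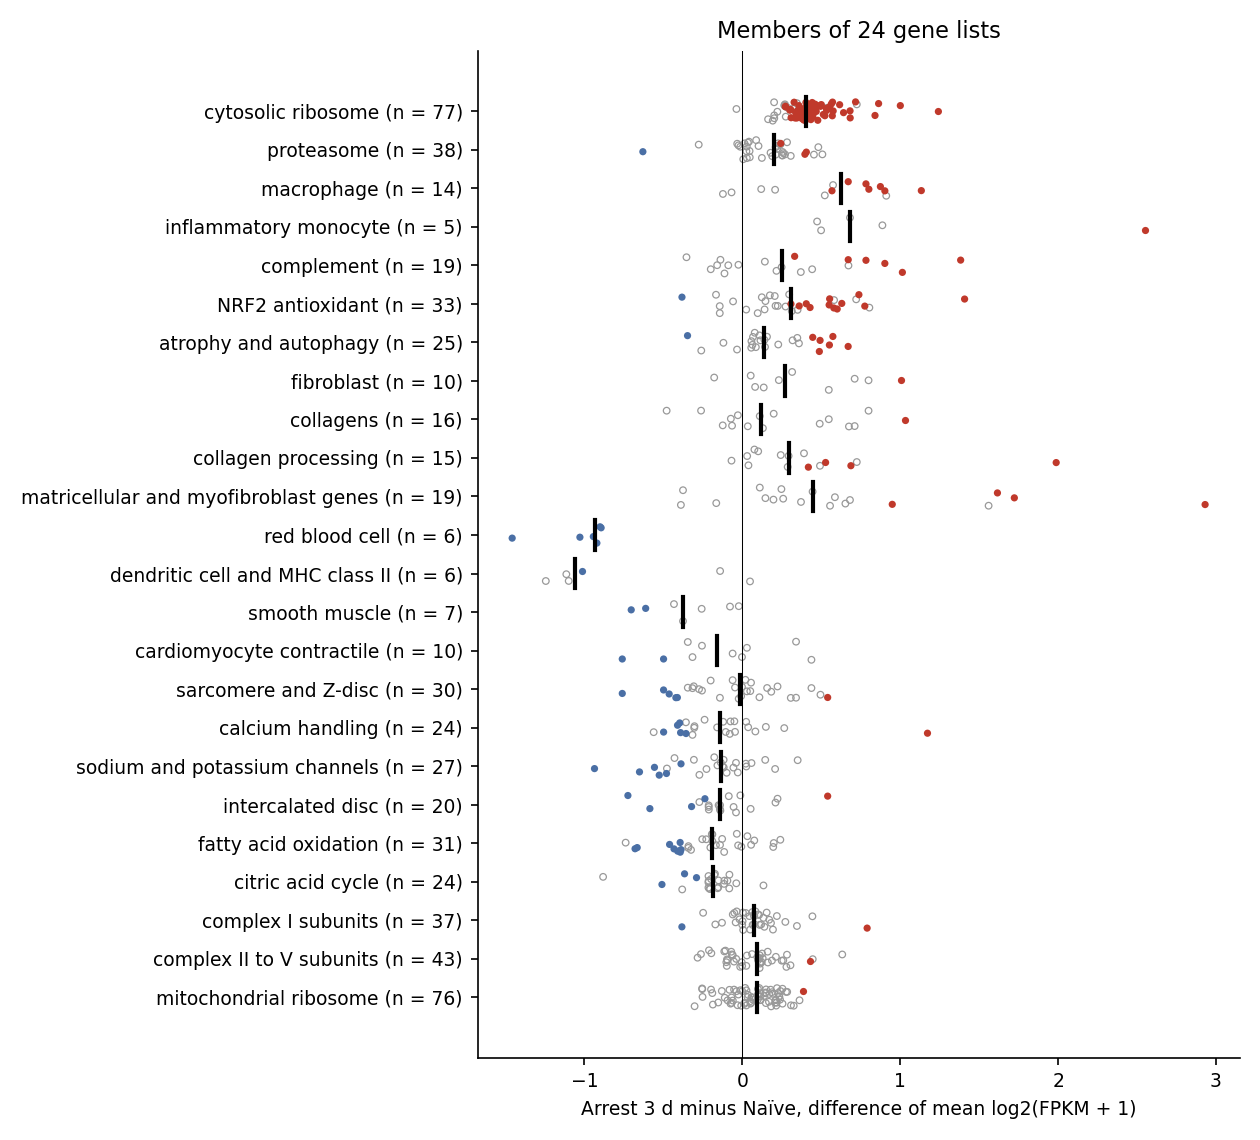
Difference between Arrest 3 d and Naïve in mean log2(FPKM + 1) for each tested member of 24 lists (rows); the vertical bar is the list median, filled points have an unadjusted p of at most 0.05 (red higher, blue lower). The ribosome row is narrow and to the right of 0 (median 0.40), the red blood cell row is to the left (median −0.93), and respiratory chain rows straddle 0.

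Vascular lists differed in direction. Smooth muscle genes had a median of −0.38, with 7 of 7 tested below Naïve. An unadjusted p of at most 0.05 held for 2 of the 7, against 4.06% of all genes. Mylk, myosin light chain kinase, was at 1.45 to 1.64 FPKM against 2.15 to 3.33 FPKM. Endothelial markers had a median of −0.03, although Cdh5, VE-cadherin, was at 32.9 to 48.2 FPKM against 46.3 to 50.8 FPKM. Of 18 genes of endothelial activation and coagulation 15 were above Naïve (median 0.35), but the median was 0.05 without Arrest replicate 1 and Naïve replicate 4. Of 31 angiogenesis genes 20 were below Naïve (median −0.14), 5 with an unadjusted p of at most 0.05, against 4.06% of all genes. Lymphocyte markers were scarce. Cd3e was listed at 0 in 5 of the 9 libraries, and 2 of 11 T cell genes were tested. Core clock genes had a median of 0.02, NF-kB pathway genes 0.01, Wnt genes 0.01 and splicing factors −0.09. Apln, which encodes the vascular peptide apelin, stood at 0.299, 2.30, 4.88 and 4.01 FPKM against 4.04 to 9.50 FPKM, with overlap (−1.2 ± 0.40, adjusted p = 0.364).

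Set beside the other groups, day 3 was the highest point for Gm2830. The gene was picked for these same day-3 values, so a peak on that day is favoured by the choice. On days 0.5, 1, 3 and 7 after arrest its means were 3.87 ± 3.25, 4.61 ± 1.42, 8.96 ± 0.670 and 4.29 ± 1.38 FPKM (SD, n = 4 each), and in Adr mice of day 3 the mean was 4.81 ± 2.09 FPKM. The 4 day-3 libraries overlapped those at 0.5 days, whose highest was 8.52 FPKM. They lay above all of those at 1 and 7 days, and above all in Adr at 3 days, where the highest was 7.04 FPKM. The Naïve mean was 1.25 ± 0.786 FPKM (SD, n = 5). Every library at 1 day and in Adr at 3 days also lay above the highest Naïve library (2.57 FPKM). At 0.5 and 7 days the lowest libraries, at 1.14 and 2.30 FPKM, did not. A level above Naïve was thus not particular to day 3 or to arrest. Fitted directly, the day-3 values exceeded those at 1 day by 0.86, at 7 days by 0.95 and in Adr at 3 days by 0.85 on the log2 scale, none past the threshold (limma, adjusted p = 0.159, 0.450 and 1.00). Gm38317 was detected in all Arrest groups, with means from 3.10 to 5.18 FPKM, and in 3-day Adr hearts at 2.21 ± 1.79 FPKM.

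Across all genes, direct comparisons of the 3-day Arrest group called none. Against Adr at 3 days, 0 of 13105 genes were called (0%) and 299 had an unadjusted p of at most 0.05. Adr replicate 3 stood apart there, with a mitochondrial share of 9.36% against 26% to 28.1% in the other 3 libraries. Without it 1 gene was called, lower in Arrest, and 433 had such a p. The study left out 1 poor-quality 3-day Adr sample, which the labels do not identify. Against Arrest at 1 day, 0 of 13134 were called (0%) and 1553 had such a p. Against Arrest at 7 days, 0 of 13152 were called (0%) and 1011 had such a p. Without Arrest 3 d replicate 1, however, the comparison with 1 day called 41 genes, and without Arrest 1 d replicate 4 it called 38, so that the count of 0 there turned on single libraries. These comparisons share the 4 day-3 libraries, and those with Naïve share its 5 libraries.

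The course of single genes differed. Serpina3n stood at 142 ± 41.8, 165 ± 52.0, 39.4 ± 50.7 and 7.46 ± 3.93 FPKM on days 0.5, 1, 3 and 7, and the 114 FPKM of replicate 1 at 3 days lay within the range of the earlier groups. Rpl31 and Ctsd were highest at 3 days among the Arrest groups, Rpl31 at 169 ± 27.5, 177 ± 11, 222 ± 11.6 and 167 ± 14.0 FPKM and Ctsd at 235 ± 34.2, 237 ± 32.1, 311 ± 19.7 and 239 ± 7.93 FPKM on days 0.5, 1, 3 and 7. In the fits against 7 days they differed by 0.41 and 0.38 (adjusted p = 0.498 for both). Both genes were named for their day-3 values, a choice that favours a high day 3. In the 3-day Adr group Rpl31 was at 198 ± 47.2 FPKM and Ctsd at 313 ± 155 FPKM. Replicate 3 of that group was the highest for both, at 261 and 545 FPKM. Tfrc was below Naïve (16.3 ± 3.70 FPKM) in every Arrest group, lowest at 1 day (3.89 ± 3.00 FPKM) and at 7.09 ± 1.41 FPKM at 3 days. The mean of the 3-day Adr group was close to the latter, at 7.00 ± 4.41 FPKM. Acsl1 was at 41.0 ± 8.17 FPKM at 3 days and at 58.4 ± 8.41 FPKM at 7 days, against 65.5 ± 6.05 FPKM in Naïve. Spp1 was at 3.12 to 66.2 FPKM at 3 days and at no more than 2.04 FPKM at 1 and 7 days. At 0.5 days it was at 0.346 to 10.8 FPKM, which overlapped day 3. In the 3-day Adr group Spp1 was at 594 FPKM in replicate 3, the library that stood apart, and at 0.242 to 1.24 FPKM in the other 3.

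**Figure D5:**
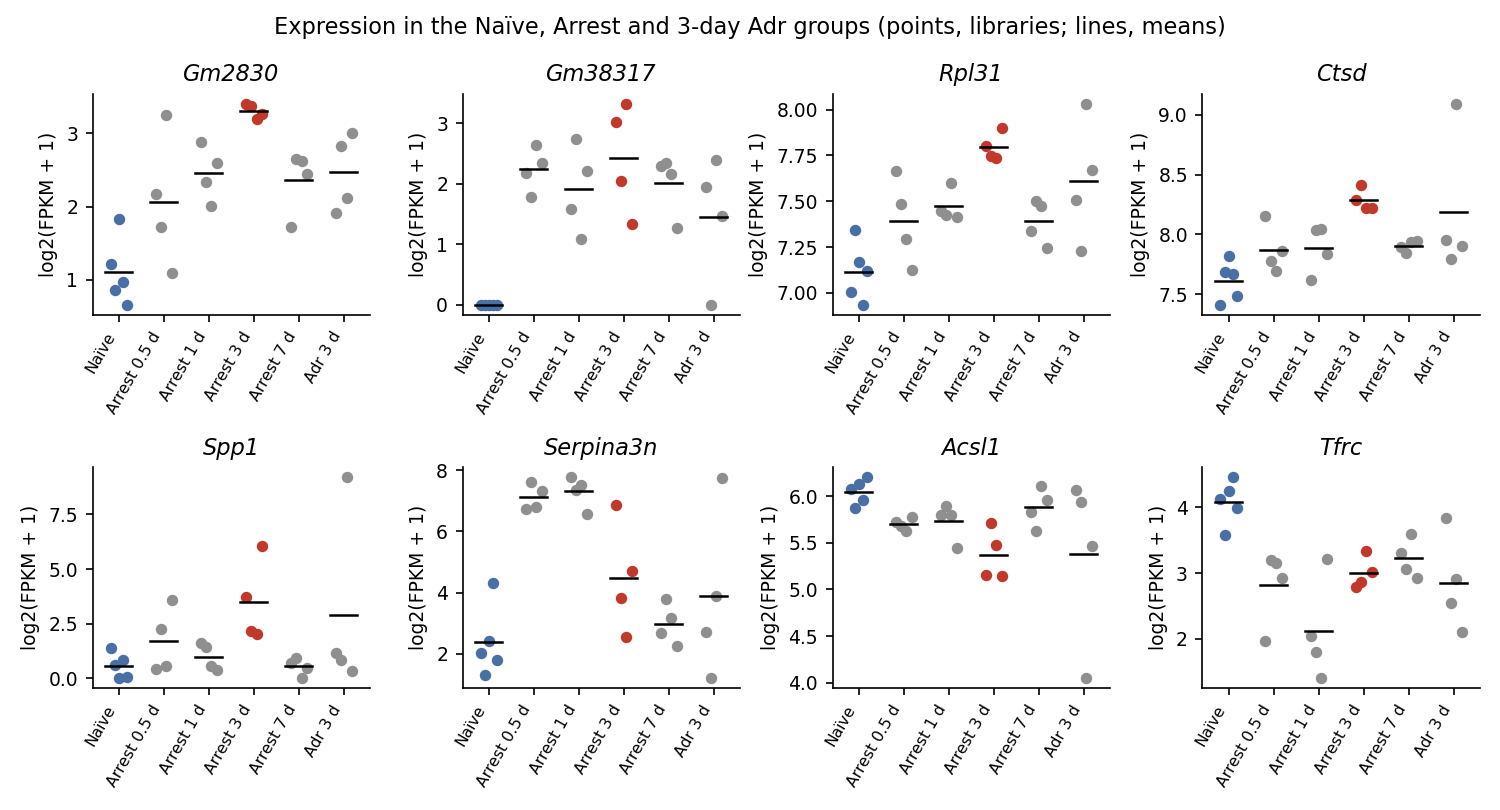
Expression of 8 genes as log2(FPKM + 1) in Naïve (blue), Arrest 3 d (red) and the other Arrest groups and 3-day Adr group (grey); points are libraries and lines group means (n = 5 in Naïve, 4 in each other group). Gm2830, Rpl31 and Ctsd, named for their day-3 values, have their highest Arrest mean at 3 days. Serpina3n is higher at 0.5 and 1 day than at 3 days.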

How the data were processed

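Left ventricular RNA of 37 mice was sequenced by Novogene (paired reads of 150 bases) from samples with an RNA integrity number of at least 6. The authors checked reads with FastQC, aligned them with HISAT2 2.0.5 and tested genes with DESeq2. They deposited 1 table of FPKM values with 1 column per library; the counting tool, strand and build are not given in the sources used here. Unused per-sample columns numbered 0. Each value, times its gene's length, came out as a whole number of fragments (100% of values, tolerance 0.01 fragments), which gave the fragments counted on genes. Intervals and limits from those counts cover counting error only. No 2 libraries of a group were copies of one another (chi-square per gene 15.7 to 69.3).

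Groups follow the treatment labels. Genes at or above 0.5 FPKM in 4 or more of the 9 libraries were fitted as log2(FPKM + 1) by limma 3.58.1 (R 4.3.3), with 1 mean per group, no covariate and a trended eBayes prior, and the Benjamini-Hochberg threshold was 0.05. A fold change on this scale understates that of low genes. Direct comparisons used the 8 libraries concerned. The code was tested on simulated data. The members and the 70 gene lists were chosen with earlier results of these data known. Genes are named by a rule: up to 12 per direction by size among the called, then by p, without overlap and with a mean of at least 1 FPKM, up to 4 called or 2 leading genes per list, and 12 further genes picked with those earlier results known; others were chosen after their values were seen. A list is described by counts and its median, with no test. Pseudogenes were aligned with blastn to GENCODE M21 coding transcripts. Alternatives covered scaling, pseudocount, filter, gene length (local regression, span 0.5), models of 37 or 36 libraries (Adr 3 d replicate 3, which stood apart in earlier results, left out), covariates, weights, voom on the recovered fragments and leaving out each library. Replicate numbers did not pair the samples.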

Additional observations from a re-analysis of the deposited data

Results flagged for a closer look

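Of 72 sets of values examined for 1 library far from the rest of its group (Dixon's criterion, which chance meets in about 1 set in 20), 7 met it. Arrest replicate 4 held 30.18 M fragments, far above the other 3 Arrest libraries. Naïve replicate 4 had 13475 genes above 0, the fewest of its group. The others are single genes on the log2(FPKM + 1) scale. In Arrest, Ebp reached 3.33 in replicate 3, Zbtb20 reached 3.02 in replicate 2 and Gm32113, a noncoding RNA gene, was at 0 in replicate 1. In Naïve, Nlk reached 3.25 in replicate 4, and the long noncoding RNA gene ENSMUSG00000120910 was at 0.415 in replicate 1 and at 0 in the others.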

How the results depend on the processing

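The count of genes called between Arrest at 3 days and Naïve, 1 in the analysis reported, was 2 as TPM, 3 with a pseudocount of 0.1, 0 without the filter, 2 with sex as a covariate, 0 with the description number as a covariate and 0 with voom. It was 23 in a model of all 37 libraries and 188 in one of 36. In 3 alternatives chosen after seeing the data it was 259 in the 36-library model with the filter of the 9 libraries, 86 in that model with length regression, and 0 without Arrest replicate 1 and Naïve replicate 4. Leaving out each library in turn gave 0 to 2, with 0 without any single Arrest replicate. With the replicate block the count was 0, and same-numbered libraries did not deviate together (r from −0.0043 to 0.056), so the numbers are not a pairing. Leaving out libraries gave 0 to 1 calls against Adr at 3 days, 0 to 41 against Arrest at 1 day and 0 to 2 against Arrest at 7 days. The difference in mitochondrial share ranged from −2.28 to −0.510 percentage points. The signs of 33 named genes changed in 4 cases, all with the description number as a covariate: Mt1 −0.76, Apln 0.31, Lcn2 −0.55 and Mmp3 −1.18. The list median of MHC class II genes became 0.92 that of atrophy and autophagy genes −0.20 and that of proteasome genes −0.02 with that covariate. The causes were not tested. Depth limits genes near 1 FPKM, which rest on few fragments.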

Other observations

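Several genes outside the lists, chosen after their values were seen, had no or little overlap between the groups. Asb5 and Mylk4, muscle genes of a ubiquitin ligase adaptor and a myosin light chain kinase, stood at 3.78 to 11.6 and 3.19 to 14.1 FPKM in Arrest against 10.1 to 24.8 and 16.9 to 26.4 FPKM in Naïve (differences of −1.08 ± 0.30 and −1.25 ± 0.33 on the log2 scale). Neither was called in the 9 libraries (limma, adjusted p = 0.317 and 0.309). Tspo, a protein of the outer mitochondrial membrane that is abundant in activated macrophages, stood at 87.6, 47.5, 52.5 and 89.1 FPKM in Arrest against 25.8 to 64.2 FPKM in Naïve (0.85 ± 0.27, adjusted p = 0.361).

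Lyve1 and Pecam1, genes of resident macrophages, lymphatic vessels and endothelium, were high in Arrest replicate 1 alone, at 129 and 147 FPKM against no more than 26.4 and 52.6 FPKM in the other 8 libraries. Cdh5, another endothelial gene, was at 48.2 FPKM there, inside the Naïve range.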
